A study of Mus musculus with 24 samples.

Results

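The genes described here are 39 genes of the DNA replication machinery, measured in mouse liver on 1-colour oligonucleotide arrays. They were listed by their role in copying DNA, and every gene probe that carries one of their symbols was taken, which gave 52 of 55681 probes. A gene was tested if some group had all 4 of its arrays well above background, which held for 37 members (44 probes) among 15705 genes; Cdc6 and Cdc7 did not pass. The livers came from male mice of 3 inbred strains, A/J, C3H/HeJ and the wild-derived WSB/EiJ, each on 2 diets, which gave 6 groups of 4 arrays. The deficient diet held 0.17% methionine and 0 choline and 0 folic acid. The control diet was the same iron-supplemented, amino acid-defined food, with methionine at 0.4%, choline bitartrate at 0.3% and folic acid at 2 mg per kg, so the iron supplement was common to all 6 groups. Mice were allocated to a diet at 8 weeks of age, ate it for 12 weeks and were killed at 20 weeks. The labels number the 4 samples of a group without naming the animal behind each, and a p-value here covers only how these samples scatter.

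A cell copies its genome once in each division. Origins are licensed when the origin recognition complex, Cdc6 and Cdt1 load the Mcm2 to Mcm7 ring onto DNA; the ring is turned into a moving helicase by Cdc7 with Dbf4, the GINS proteins and Mcm10, and the polymerases, the Pcna clamp, its Rfc loader and the strand-joining enzymes then follow the fork. Most adult hepatocytes are quiescent, and many of these genes are transcribed under E2F transcription factors when liver cells re-enter the cell cycle. In whole-liver RNA, fewer cells of a type and less RNA per cell cannot be told apart.

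The promoters of 4 members are shown because the genes behaved differently in the data below: Mcm6 and Mcm5 were higher on the deficient diet in all 3 strains, Mcm7, a subunit of the same ring, was called in none, and Tk1 was lower in C3H/HeJ and WSB/EiJ. Each line holds the 250 bases before the RefSeq start of the gene, 5′ to 3′ along the gene's strand in GRCm38.p6, with E2F-type octamers in capitals. The stretches are chr1:128359706-128359955 (minus strand) for Mcm6, chr8:75109259-75109508 (plus strand) for Mcm5, chr5:138171884-138172133 (minus strand) for Mcm7, for the one of its RefSeq windows that holds matches, and chr11:117826015-117826264 (minus strand) for Tk1.
Mcm6: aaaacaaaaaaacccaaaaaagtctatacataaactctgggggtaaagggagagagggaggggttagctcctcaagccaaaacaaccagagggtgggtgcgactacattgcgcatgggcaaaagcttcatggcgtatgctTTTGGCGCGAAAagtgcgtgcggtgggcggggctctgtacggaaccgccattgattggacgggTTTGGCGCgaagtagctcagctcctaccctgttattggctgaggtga
Mcm5: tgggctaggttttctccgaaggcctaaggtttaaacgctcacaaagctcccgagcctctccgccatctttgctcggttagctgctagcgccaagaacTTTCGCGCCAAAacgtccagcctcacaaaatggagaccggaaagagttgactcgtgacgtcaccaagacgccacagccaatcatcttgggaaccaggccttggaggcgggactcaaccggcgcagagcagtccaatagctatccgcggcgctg
Mcm7: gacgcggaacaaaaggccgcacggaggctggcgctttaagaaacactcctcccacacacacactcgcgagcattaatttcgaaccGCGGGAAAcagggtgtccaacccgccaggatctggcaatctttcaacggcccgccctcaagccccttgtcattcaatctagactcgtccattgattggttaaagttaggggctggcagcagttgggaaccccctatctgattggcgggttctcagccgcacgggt
Tk1: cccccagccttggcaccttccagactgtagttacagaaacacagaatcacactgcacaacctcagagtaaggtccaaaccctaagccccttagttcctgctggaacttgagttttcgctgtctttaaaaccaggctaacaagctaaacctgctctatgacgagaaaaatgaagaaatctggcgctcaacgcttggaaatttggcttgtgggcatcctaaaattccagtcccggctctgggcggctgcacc

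The octamers searched were TTTCCCGC, TTTGGCGC, TTTCGCGC and TTTGCCGC on both strands, in windows of 250 bases before and 50 after a start, and matches that overlapped on opposite strands were each counted. The RefSeq table held windows for 33 members (38 windows); Mcm4, Gins1, Gins2, Pole, Prim2 and Rfc2 had none. At least 1 octamer stood in 11 of the 38 member windows (28.9%), each of a different gene, against 744 of all 32851 windows (2.26%). The members with a match were Cdc6, Cdt1, Mcm3, Mcm5, Mcm6, Mcm7, Pola1, Pole2, Pold1, Rfc3 and Lig1. Mcm6 held 3 matches, starting 110, 106 and 47 bases before the start, and Mcm5 held 2, at 153 and 149 bases, overlapping each other. Mcm7 had 1 match 165 bases before the start and 1 beyond it. Neither Tk1 nor Mcm10, E2f1 or Rrm2 had a match, which says only that these letters are not in these windows. The CCAAT box was present in 18 of the 38 member windows (47.4%) and in 37.4% of all windows.

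On the arrays, 44.4 to 56.0% of gene spots were well above background and no gene spot was saturated; the number of arrays limits the precision. Levels are log2 processed signals minus the array's 75th percentile, so 0 is the 75th percentile of that array, and levels of different genes are not compared. All 12 hepatocyte markers were above background on all 24 arrays. The arrays lay on 3 slides of 8, each with all 6 groups. One array stood apart for the members: C3H/HeJ control 2 on slide 3 was 1.08 below the 24-array mean in the median of the 19 genes called higher in both C3H/HeJ and WSB/EiJ, while the other 3 C3H/HeJ control arrays were 0.29 to 0.42 below it. Without that array 23 members were still called for diet in C3H/HeJ, 22 of them also called with it. Values without it are given below for some of the results that it moved. Under scaling to the E1A spike-in probes, the median diet difference of all genes moved up by 0.37 in A/J, 0.47 in C3H/HeJ and 1.03 in WSB/EiJ, so every difference below is relative to the 75th percentile. The sign of the diet difference turned under that scaling for 9 members in A/J (Gins1, Prim1, Prim2, Pcna, Rfc3, Rfc4, Rfc5, Rpa3 and Tyms), 7 in C3H/HeJ (Mcm7, Pola2, Prim2, Rfc1, Rfc5, Rpa3 and Tyms) and 8 in WSB/EiJ (Mcm7, Gins1, Rfc1, Rfc5, Rpa1, Rpa3, Tyms and Dut).

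The deficient diet was associated with higher levels of many replication genes in C3H/HeJ and WSB/EiJ, and of a few in A/J. In A/J, 5 members were higher and 0 lower (limma, adjusted p under 0.05), against 5.64% higher and 4.63% lower of all genes tested (10.3% in either direction). The A/J number was 2 without A/J control 1, deficient 1 or deficient 3, and 3 without A/J control 3. C3H/HeJ had 20 members higher and 3 lower, where 17.3% of all genes were higher and 30.6% lower (47.9% in either). WSB/EiJ had 21 higher and 5 lower, where 23.6% of all genes were higher and 50% lower (73.6% in either). The median diet difference of the 37 members was 0.07, 0.51 and 0.59 in A/J, C3H/HeJ and WSB/EiJ, beside -0.07, -0.16 and -0.33 for all genes tested. Under spike-in scaling, 16 members were higher and 0 lower in A/J, 29 and 0 in C3H/HeJ, and 35 and 2 in WSB/EiJ, the 2 being Mcm10 and Tk1. That scaling also moved the median of all genes up, and the share of all genes tested that it called is not given. The counts under it are therefore not read as a result about the members. Of all genes called, 54.9, 36.04 and 32.04% were higher in A/J, C3H/HeJ and WSB/EiJ, against 95.5, 89.1 and 90.4% under spike-in scaling and 62.0, 52.3 and 49.6% under quantile normalization. All 4 deficient arrays lay above all 4 control arrays for 10, 19 and 21 of the 37 tested members in A/J, C3H/HeJ and WSB/EiJ, against 8.13, 13.8 and 22.3% of all genes tested. They lay below them for 1, 1 and 4, against 9.25, 21.1 and 47.4%. Cdt1, Mcm5, Mcm6, Gins2 and Lig1 were called higher in all 3 strains, and a further 14 members in C3H/HeJ and WSB/EiJ. Within slides 1, 2 and 3, the called members kept their sign in 5, 5 and 5 of 5 cases in A/J, in 23 of 23 on each slide in C3H/HeJ, and in 26, 25 and 26 of 26 in WSB/EiJ, where Rpa3 on slide 2 was the exception. The members had been called on these same arrays, so most signs were bound to be kept, and this is no separate support.

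**Figure D1:**
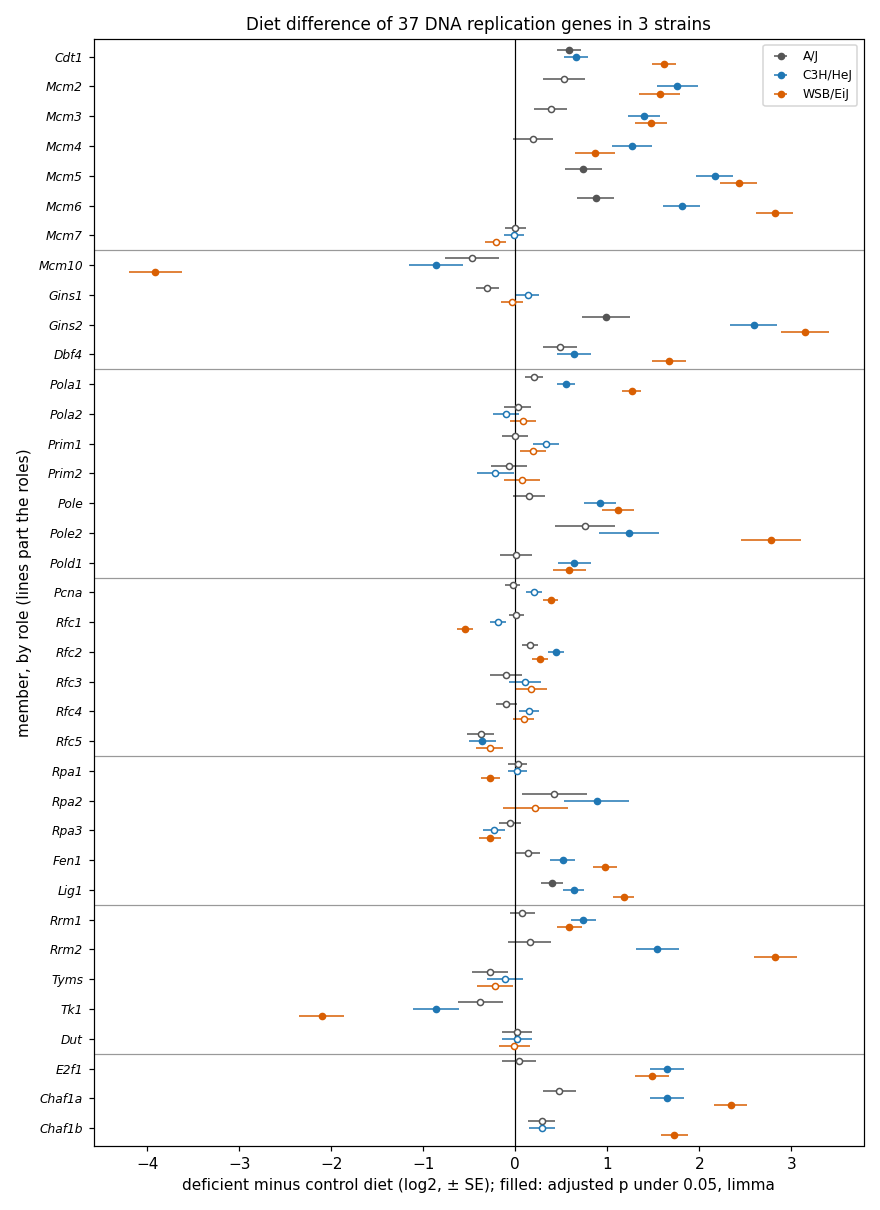
Deficient minus control diet for the 37 tested members, on the log2 scale with the standard error of the fit (x axis), by role (y axis) and strain (colours); filled points have an adjusted p under 0.05. Most filled points lie right of 0, and Mcm10 and Tk1 lie left of it, at -3.91 and -2.10 in WSB/EiJ.

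Origin licensing showed the most even pattern: of 7 tested members, 6 rose in C3H/HeJ and in WSB/EiJ, 3 rose in A/J, and 0 fell in any strain. Mcm6, a subunit of the helicase ring, had levels of 1.52, 2.41, 1.55 and 2.42 on A/J control arrays and 3.15, 2.67, 3.10 and 2.50 on A/J deficient arrays. In C3H/HeJ they were 2.45, 2.27, 2.42 and 2.36 on the control diet and 4.12, 4.25, 4.56 and 3.80 on the deficient diet. In WSB/EiJ they were 0.49, 0.65, 0.64 and 0.37 on the control diet and 3.58, 3.20, 3.22 and 3.43 on the deficient diet. All deficient arrays were above all control arrays of their strain, and WSB/EiJ started lowest. The differences were 0.88 ± 0.20 (SE) in A/J (adjusted p = 0.00837), 1.81 in C3H/HeJ (adjusted p = 1.44e-06) and 2.82 in WSB/EiJ (adjusted p = 5.15e-10), or 1.84-fold, 3.50-fold and 7.05-fold.

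Mcm5, another subunit of the ring, was at -1.40, -0.79, -1.55 and -0.54 on the A/J control diet and -0.14, -0.37, -0.27 and -0.53 on the deficient diet. C3H/HeJ gave -1.88, -1.97, -1.54 and -1.51 on the control diet and 0.47, 0.49, 0.91 and -0.11 on the deficient diet. WSB/EiJ gave -1.46, -1.58, -1.32 and -1.45 on the control diet and 1.14, 0.82, 1.03 and 0.93 on the deficient diet. In A/J the highest control array and the lowest deficient array nearly met, whereas in C3H/HeJ and WSB/EiJ the groups were far apart. The differences were 0.74 ± 0.20 (SE, adjusted p = 0.023), 2.17 (adjusted p = 1.52e-07) and 2.43 (adjusted p = 3.25e-09). The A/J call of Mcm5 was lost without control 1, control 3, deficient 1 or deficient 3, with differences of 0.58 to 0.92 over all arrays left out in turn. In a fit of the A/J arrays alone, neither Mcm5 nor Mcm6 passed the test (adjusted p = 0.0931 and 0.0899).

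Cdt1, the loading factor, rose by 0.59 ± 0.13 (SE) in A/J, 0.66 in C3H/HeJ and 1.61 in WSB/EiJ (adjusted p = 0.00691, 4.83e-04 and 2.49e-09). Mcm2 rose by 1.76 ± 0.23 in C3H/HeJ and 1.57 in WSB/EiJ, Mcm3 by 1.40 ± 0.18 and 1.47, and Mcm4 by 1.27 ± 0.22 and 0.87. In A/J these 3 differed by 0.53, 0.38 and 0.19 and did not pass the test. Without C3H/HeJ control 2, the C3H/HeJ differences of Mcm2, Mcm3 and Mcm4 were 1.58, 1.22 and 0.99. Mcm7 stood apart from the other subunits of the ring. Its means (n = 4) were 2.60 ± 0.10 (SD) and 2.60 ± 0.11 on the control and deficient diet in A/J, 2.33 ± 0.15 and 2.31 ± 0.21 in C3H/HeJ, and 2.96 ± 0.08 and 2.74 ± 0.22 in WSB/EiJ. The diet differences of Mcm7 were 0.00, -0.01 and -0.21 ± 0.11 (SE); under spike-in scaling they turned to 0.46 in C3H/HeJ and 0.82 in WSB/EiJ and passed the test.

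Mcm3 was read by a pair of overlapping probes on chromosome 1 (the array's mouse build NCBI37, minus strand), at 20793119 to 20793178 for the brighter and 20793136 to 20793195 for the dimmer. They share 43 bases with 1 mismatch, which is shown in capitals with the bases around it because a probe mismatch can change a level.
Dimmer probe: agctttctttgcAattagactagta
Brighter probe: agctttctttgcGattagactagta
Counted from 1 at the 5′ end of the bases shown, the substitution from the dimmer to the brighter probe is A13G. Both probes rose in C3H/HeJ, by 1.40 ± 0.18 (SE) on the brighter and 1.34 ± 0.19 on the dimmer, and in WSB/EiJ, by 1.47 and 1.54.

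**Figure D2:**
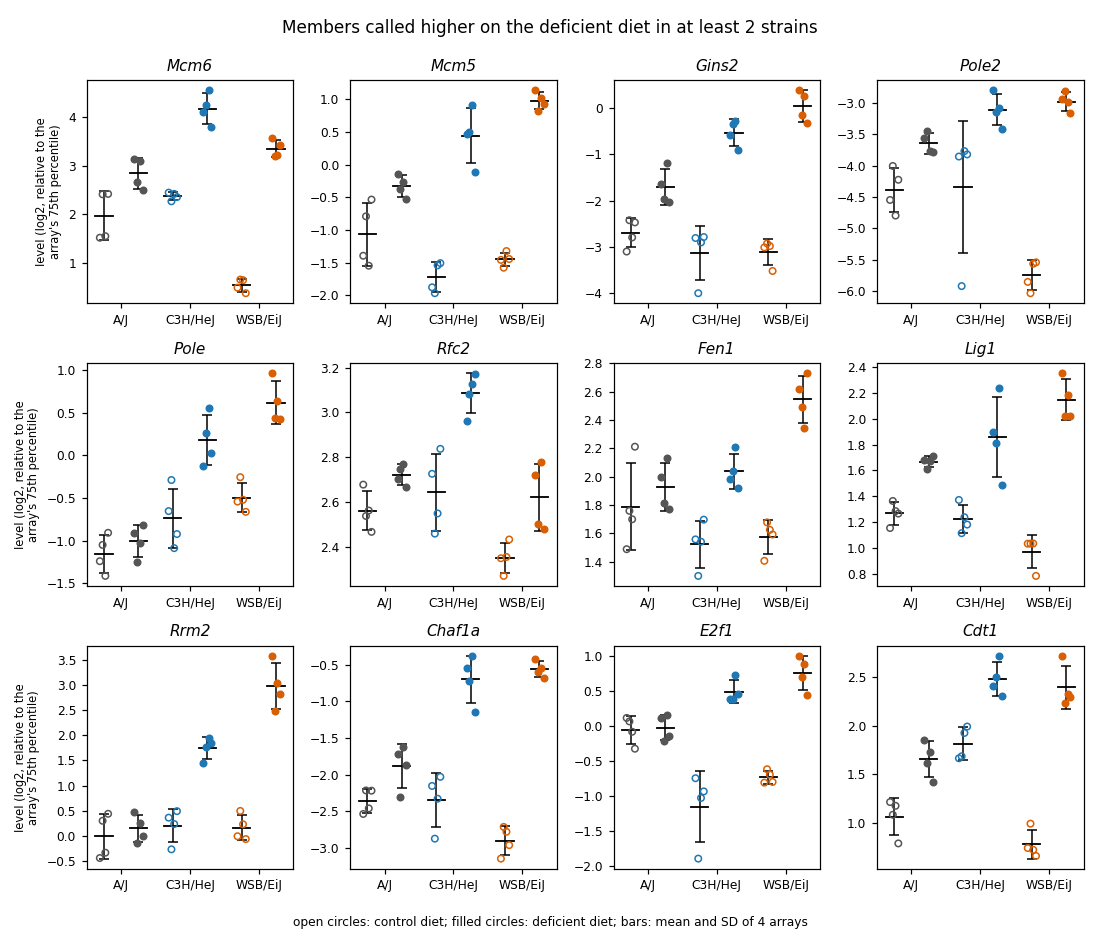
Levels (y axis, log2 relative to the array's 75th percentile) of 12 members called higher on the deficient diet in at least 2 strains, by strain (x axis); open circles are control and filled circles deficient arrays, with the mean and SD of 4 arrays. C3H/HeJ control 2 is the low open circle of Gins2 (-4.00), Pole2 (-5.93) and E2f1 (-1.89).

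Of the members that turn the loaded ring into a helicase, Gins2 and Dbf4 rose in both C3H/HeJ and WSB/EiJ while Mcm10 fell in both; Gins2 also rose in A/J. Gins2, a GINS subunit, had levels of -3.10, -2.43, -2.80 and -2.47 on A/J control and -1.64, -1.97, -1.20 and -2.04 on A/J deficient arrays. In C3H/HeJ its levels were -2.81, -4.00, -2.90 and -2.79 on the control diet and -0.59, -0.35, -0.29 and -0.92 on the deficient diet. In WSB/EiJ they were -3.01, -2.93, -2.98 and -3.52 on the control diet and 0.38, -0.15, 0.26 and -0.34 on the deficient diet. The diet groups did not overlap in any strain, and C3H/HeJ control 2 was the lowest array and the single one not well above background. Gins2 rose by 0.99 ± 0.26 (SE, adjusted p = 0.0182), 2.59 (adjusted p = 3.40e-07) and 3.15 (adjusted p = 2.71e-09), or 1.98-fold, 6.02-fold and 8.86-fold. The C3H/HeJ difference was 2.30 without control 2, and the A/J call was lost without A/J control 1, deficient 1 or deficient 3.

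Mcm10, which links the helicase to polymerase alpha, moved the other way. On its single probe (chromosome 2, 4911785 to 4911844, NCBI37, minus strand) the A/J levels were 6.05, 6.64, 6.20 and 6.05 on the control and 6.15, 5.40, 5.81 and 5.70 on the deficient diet. C3H/HeJ levels were 6.63, 6.69, 6.36 and 6.58 on the control diet and 5.18, 5.48, 5.86 and 6.29 on the deficient diet. WSB/EiJ levels were 6.50, 6.88, 6.88 and 5.75 on the control diet and 2.12, 2.46, 3.53 and 2.26 on the deficient diet. The WSB/EiJ deficient arrays lay far below all 20 others, C3H/HeJ diet groups were parted by a narrow gap, and A/J groups overlapped. Control levels of 5.75 to 6.88 over all strains were far above the array percentile used for scaling. There was no second Mcm10 probe, and whether this probe reads Mcm10 RNA alone was not tested. Mcm10 fell by 3.91 ± 0.29 (SE) in WSB/EiJ, a 15.0-fold lower level (adjusted p = 8.19e-10), and by 0.86 in C3H/HeJ (adjusted p = 0.0198); the A/J difference was -0.47 (adjusted p = 0.31). In C3H/HeJ the call was lost without deficient 1 or deficient 2, under quantile normalization with or without normexp, and under spike-in scaling (-0.39); in WSB/EiJ the spike-in value was -2.88. Dbf4, the activator of the Cdc7 kinase, rose by 0.63 ± 0.19 in C3H/HeJ and 1.67 in WSB/EiJ (adjusted p = 0.00872 and 1.41e-07). Gins1, another GINS subunit, differed by -0.31, 0.13 and -0.04 ± 0.12 and passed the test in no strain, although under spike-in scaling it was higher by 0.99 in WSB/EiJ.

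Among polymerase and primase members, 4 of 7 rose in C3H/HeJ and in WSB/EiJ, 0 in A/J, and 0 fell. Pole2, the accessory subunit of polymerase epsilon, had A/J levels of -4.55, -4.00, -4.80 and -4.22 on the control and -3.56, -3.44, -3.77 and -3.79 on the deficient diet. In C3H/HeJ the levels were -3.85, -5.93, -3.77 and -3.82 on the control diet and -2.79, -3.13, -3.07 and -3.41 on the deficient diet. In WSB/EiJ they were -5.86, -6.04, -5.57 and -5.55 on the control diet and -2.93, -2.81, -2.99 and -3.16 on the deficient diet. All deficient arrays were above the control arrays of their strain, and all 12 deficient arrays were well above background against 2 of 4 control arrays in A/J, 2 of 4 in C3H/HeJ and 0 of 4 in WSB/EiJ. The WSB/EiJ means were -5.75 and -2.97 as measured (limma, adjusted p = 2.98e-07 for that measured difference). Set against the lowest signals that were well above background on the control arrays, the deficient level was at least 2.39-fold higher. This bound was not itself tested. Pole2 rose by 1.24 ± 0.33 (SE) in C3H/HeJ (adjusted p = 0.00439), a value of 0.71 without control 2 that also passed but a call lost in a fit of the C3H/HeJ arrays alone (adjusted p = 0.0670), and differed by 0.76 in A/J (adjusted p = 0.144).

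Pole, the catalytic subunit of the leading-strand polymerase, had A/J levels of -1.24, -1.05, -1.41 and -0.91 on the control diet and -0.91, -1.25, -1.03 and -0.82 on the deficient diet. C3H/HeJ levels of Pole were -0.65, -0.29, -1.09 and -0.92 on the control diet and -0.12, 0.27, 0.56 and 0.03 on the deficient diet. WSB/EiJ levels of Pole were -0.54, -0.26, -0.52 and -0.66 on the control diet and 0.97, 0.44, 0.64 and 0.43 on the deficient diet. The A/J groups overlapped, and the other strains' groups were separate. Pole rose by 0.92 ± 0.18 (SE, adjusted p = 3.72e-04) in C3H/HeJ and 1.11 in WSB/EiJ (adjusted p = 1.16e-05). Pola1, the catalytic subunit of polymerase alpha, rose by 0.55 ± 0.10 and 1.26, and Pold1, that of polymerase delta, by 0.64 ± 0.18 and 0.59; the C3H/HeJ call of Pold1 was lost in a fit of the C3H/HeJ arrays alone (adjusted p = 0.0649). The A/J differences of Pole, Pola1 and Pold1 were 0.15, 0.21 and 0.01, and none passed the test. Pola2 and the primase subunits Prim1 and Prim2, which make up the rest of the polymerase alpha-primase complex, passed in no strain, with differences of -0.10 to 0.08, up to 0.33, and -0.22 to 0.07, respectively; without C3H/HeJ control 2, Prim1 rose in C3H/HeJ by 0.39 (adjusted p = 0.0446).

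The sliding clamp and its loader showed small differences in both directions. Rfc2, a loader subunit, had A/J levels of 2.68, 2.54, 2.56 and 2.47 on the control diet and 2.70, 2.75, 2.77 and 2.66 on the deficient diet. C3H/HeJ gave 2.73, 2.46, 2.55 and 2.84 on the control diet and 2.96, 3.08, 3.13 and 3.17 on the deficient diet, and WSB/EiJ gave 2.35, 2.27, 2.35 and 2.43 on the control diet and 2.72, 2.50, 2.78 and 2.48 on the deficient diet. The A/J groups overlapped and the others were separated by small gaps; Rfc2 rose by 0.44 ± 0.09 (SE, adjusted p = 5.83e-04) in C3H/HeJ and 0.27 in WSB/EiJ (adjusted p = 0.0105), and differed by 0.16 in A/J. Pcna, the clamp itself, rose by 0.39 ± 0.08 in WSB/EiJ (adjusted p = 3.78e-04), with 0.20 in C3H/HeJ (adjusted p = 0.0546) and -0.03 in A/J. Rfc3 and Rfc4 passed the test in no strain, with differences between -0.10 and 0.17.

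Rfc1, the large subunit of the loader, had A/J levels of 2.18, 2.13, 2.26 and 1.89 on the control diet and 2.18, 2.09, 2.03 and 2.22 on the deficient diet. The levels of Rfc1 in C3H/HeJ were 2.26, 2.28, 2.23 and 2.30 on the control diet and 1.89, 2.06, 2.13 and 2.24 on the deficient diet. Those of Rfc1 in WSB/EiJ were 2.29, 2.30, 2.35 and 2.38 on the control diet and 1.75, 1.72, 1.93 and 1.74 on the deficient diet. The WSB/EiJ deficient arrays were below the control arrays of that strain, and the C3H/HeJ and A/J groups overlapped. Rfc1 fell by 0.55 ± 0.09 (SE) in WSB/EiJ (adjusted p = 1.13e-05), but was higher by 0.48 there under spike-in scaling (adjusted p = 0.00069). Rfc5, another loader subunit, had A/J levels of 2.64, 2.59, 2.66 and 2.25 on the control diet and 2.10, 2.23, 1.85 and 2.47 on the deficient diet. The levels of Rfc5 in C3H/HeJ were 2.52, 2.27, 2.54 and 2.48 on the control diet and 1.79, 1.94, 2.37 and 2.30 on the deficient diet. Those of Rfc5 in WSB/EiJ were 2.21, 2.41, 2.10 and 2.34 on the control diet and 2.07, 1.89, 2.22 and 1.78 on the deficient diet. Diet groups overlapped in every strain, and the C3H/HeJ value fell by 0.36 ± 0.15 with an adjusted p of 0.0492. That call was kept only without A/J control 4, A/J deficient 3 or 4, C3H/HeJ control 2, C3H/HeJ deficient 3 or 4, or WSB/EiJ deficient 3 or 4, and lost without any other array; the sign turned under spike-in scaling (0.11), and a second Rfc5 probe differed by 0.22 ± 0.20 in C3H/HeJ.

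Of single-strand binding and flap-processing members, Fen1, the flap endonuclease, and Lig1, the ligase that seals the lagging strand, rose, and the subunits of the RPA single-strand binding protein differed. Lig1 had A/J levels of 1.15, 1.36, 1.28 and 1.26 on the control and 1.68, 1.61, 1.67 and 1.71 on the deficient diet. C3H/HeJ levels of Lig1 were 1.37, 1.11, 1.24 and 1.18 on the control diet and 1.90, 1.81, 2.24 and 1.49 on the deficient diet. WSB/EiJ levels of Lig1 were 1.03, 1.03, 1.03 and 0.78 on the control diet and 2.35, 2.02, 2.19 and 2.02 on the deficient diet. The groups did not overlap in any strain. Lig1 rose by 0.40 ± 0.12 (SE, adjusted p = 0.0344), 0.63 (adjusted p = 3.11e-04) and 1.18 (adjusted p = 4.39e-08); the A/J call was lost without any one of the A/J arrays other than control 2, and with no background filter.

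Fen1 had A/J levels of 1.49, 1.76, 1.70 and 2.21 on the control diet and 1.99, 1.81, 2.13 and 1.77 on the deficient diet, which overlapped. C3H/HeJ levels of Fen1 were 1.56, 1.30, 1.54 and 1.70 on the control diet and 1.98, 2.04, 2.21 and 1.92 on the deficient diet, and those in WSB/EiJ were 1.40, 1.68, 1.62 and 1.59 on the control diet and 2.62, 2.49, 2.34 and 2.73 on the deficient diet, with no overlap in either. Fen1 rose by 0.51 ± 0.13 (SE, adjusted p = 0.0039) in C3H/HeJ and 0.97 in WSB/EiJ (adjusted p = 1.97e-06), with 0.14 in A/J. Rpa1, the DNA-binding subunit of RPA, had A/J levels of 3.94, 3.86, 3.74 and 3.71 on the control diet and 3.76, 3.87, 3.80 and 3.93 on the deficient diet. The levels of Rpa1 in C3H/HeJ were 4.23, 3.91, 4.08 and 4.37 on the control diet and 3.99, 4.05, 4.46 and 4.17 on the deficient diet. Those of Rpa1 in WSB/EiJ were 4.05, 4.18, 4.11 and 4.16 on the control diet and 3.97, 3.70, 3.95 and 3.78 on the deficient diet. Its WSB/EiJ deficient arrays were below the control arrays of the strain, and it fell there by 0.27 ± 0.11 (adjusted p = 0.0265). The sign turned under quantile normalization (0.21), normexp with quantile normalization (0.19) and spike-in scaling (0.76), and the call was lost with centring on the array median and without WSB/EiJ control 2, control 4, deficient 2 or deficient 4. A second Rpa1 probe was lower by 0.91 ± 0.10 in WSB/EiJ, 1.87-fold.

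Rpa3, the small RPA subunit, had A/J levels of 2.45, 2.21, 2.59 and 2.11 on the control diet and 2.18, 2.41, 2.04 and 2.50 on the deficient diet. The levels of Rpa3 in C3H/HeJ were 1.85, 1.66, 1.87 and 1.78 on the control diet and 1.51, 1.48, 1.68 and 1.58 on the deficient diet. Those of Rpa3 in WSB/EiJ were 1.69, 1.57, 1.62 and 1.95 on the control diet and 1.30, 1.47, 1.60 and 1.35 on the deficient diet. Groups overlapped in A/J, C3H/HeJ and WSB/EiJ, and Rpa3 fell by 0.27 ± 0.12 (SE) in WSB/EiJ (adjusted p = 0.0408), a call lost without WSB/EiJ control 1, control 4, deficient 1, deficient 2 or deficient 4 and turned by spike-in scaling (0.75). It was also lost with quantile normalization, normexp, the array median or no background filter. Rpa2, the middle subunit, was called higher in C3H/HeJ, by 0.88 ± 0.35 (adjusted p = 0.0452). Its C3H/HeJ control levels were -0.22, -2.50, -0.69 and -0.29, and without control 2 the difference was 0.36 (adjusted p = 0.214). The Rpa2 call was kept only without A/J control 1, 2, 3 or 4, C3H/HeJ control 1 or 4, or WSB/EiJ control 1, and lost without any other array.

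**Figure D3:**
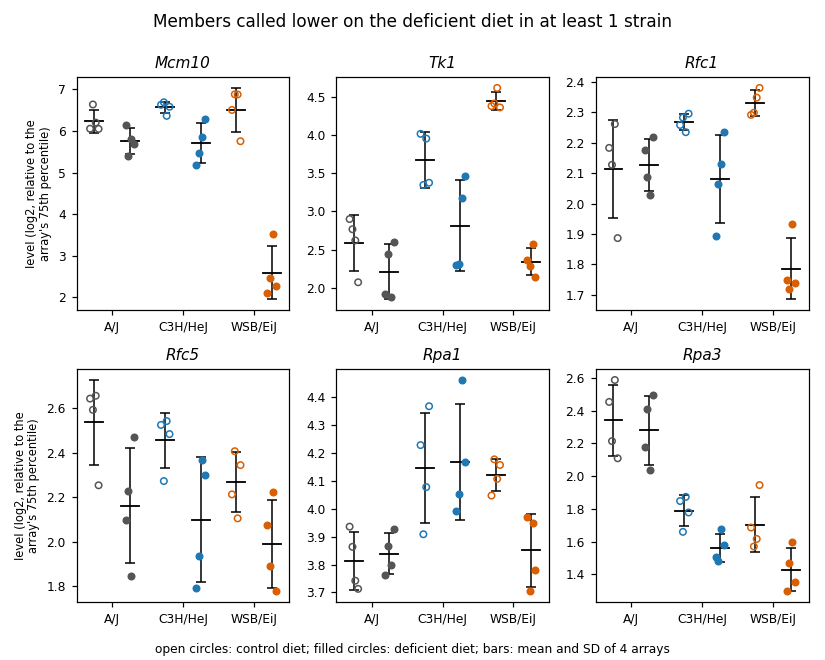
Levels (y axis, log2 relative to the array's 75th percentile) of the 6 members called lower on the deficient diet in at least 1 strain, by strain (x axis); open circles are control and filled circles deficient arrays, with the mean and SD of 4 arrays. The WSB/EiJ deficient arrays of Mcm10 (2.12 to 3.53) and Tk1 (2.14 to 2.57) lie far below the control arrays of that strain, and the other 4 genes differ by much less.

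The nucleotide supply genes split. Rrm2, the small subunit of ribonucleotide reductase, which makes deoxynucleotides, had A/J levels of -0.44, 0.30, -0.33 and 0.44 on the control and 0.48, -0.15, 0.25 and 0.01 on the deficient diet. In C3H/HeJ the Rrm2 levels were 0.36, -0.27, 0.24 and 0.49 on the control diet and 1.44, 1.77, 1.94 and 1.85 on the deficient diet. In WSB/EiJ the Rrm2 levels were -0.01, 0.50, 0.23 and -0.06 on the control diet and 3.58, 2.49, 3.05 and 2.82 on the deficient diet. The A/J groups overlapped throughout their range, whereas the deficient arrays of both other strains were above all control arrays. Rrm2 rose by 1.55 ± 0.23 (SE, adjusted p = 4.04e-05) in C3H/HeJ and 2.82 in WSB/EiJ (adjusted p = 3.11e-09), 2.92-fold and 7.08-fold, with 0.16 in A/J. Rrm1, the large subunit, rose by 0.74 ± 0.14 and 0.59 (adjusted p = 2.60e-04 and 6.42e-04), with 0.07 in A/J. Without C3H/HeJ control 2 its C3H/HeJ difference was 0.59 and was still called.

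Tk1, cytosolic thymidine kinase, which salvages thymidine for DNA synthesis, fell where Rrm2 rose. Its A/J levels were 2.90, 2.77, 2.62 and 2.07 on the control and 1.92, 2.44, 1.88 and 2.60 on the deficient diet. C3H/HeJ levels of Tk1 were 4.02, 3.35, 3.96 and 3.38 on the control diet and 2.30, 2.31, 3.17 and 3.47 on the deficient diet. WSB/EiJ levels of Tk1 were 4.38, 4.42, 4.62 and 4.36 on the control diet and 2.36, 2.29, 2.57 and 2.14 on the deficient diet. The control levels were highest in WSB/EiJ and lowest in A/J; the WSB/EiJ diet groups were far apart, and the groups overlapped in A/J and C3H/HeJ. Tk1 fell by 2.10 ± 0.25 (SE, adjusted p = 3.10e-07) in WSB/EiJ, 4.30-fold, and by 0.86 in C3H/HeJ (adjusted p = 0.00787); the A/J difference was -0.38 (adjusted p = 0.338). In C3H/HeJ the Tk1 difference within slides 1, 2 and 3 was -0.06, -1.68 and -1.03, and it was -0.39 under spike-in scaling, where the call was lost, as it was under normexp with quantile normalization and in a fit of the C3H/HeJ arrays alone; in WSB/EiJ it was -1.07 under that scaling.

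A second Tk1 probe (chromosome 11, 117683390 to 117683449, NCBI37, minus strand, against 117676845 to 117676904 for the first) gave WSB/EiJ levels of 1.35, 1.24, 1.57 and 1.60 on the control and -0.79, -0.79, -0.50 and -1.21 on the deficient diet. It was lower by 2.26 ± 0.27 (SE) in WSB/EiJ and by 1.13 in C3H/HeJ, and the remaining Tk1 probe was not well above background on any array. Tyms, thymidylate synthase, which uses a folate cofactor to make thymidylate, and Dut, which clears dUTP, passed the test in no strain, with differences of -0.27 to -0.11 and -0.01 to 0.02. Under spike-in scaling Tyms was higher by 0.81 and Dut by 1.02 in WSB/EiJ.

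E2f1, an activating E2F factor, and Chaf1a, a subunit of chromatin assembly factor 1, which places histones on new DNA, rose in C3H/HeJ and WSB/EiJ. E2f1 had A/J levels of 0.12, 0.07, -0.08 and -0.32 on the control and 0.12, -0.22, 0.16 and -0.13 on the deficient diet. In C3H/HeJ the E2f1 levels were -0.74, -1.89, -1.03 and -0.93 on the control diet and 0.39, 0.39, 0.74 and 0.46 on the deficient diet. In WSB/EiJ the E2f1 levels were -0.81, -0.61, -0.69 and -0.80 on the control diet and 1.01, 0.71, 0.89 and 0.45 on the deficient diet. The A/J groups overlapped and were above the control arrays of both other strains, whose deficient arrays were above all of the A/J arrays. E2f1 rose by 1.64 ± 0.18 (SE, adjusted p = 1.60e-06) in C3H/HeJ, 1.40 without control 2, and by 1.49 in WSB/EiJ (adjusted p = 6.00e-07), with 0.04 in A/J (adjusted p = 0.92).

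Chaf1a, the large subunit of the assembly factor, had A/J levels of -2.54, -2.22, -2.46 and -2.22 on the control and -1.72, -2.31, -1.63 and -1.86 on the deficient diet. C3H/HeJ levels of Chaf1a were -2.16, -2.88, -2.33 and -2.03 on the control diet and -0.55, -0.72, -0.39 and -1.14 on the deficient diet. WSB/EiJ levels of Chaf1a were -3.15, -2.72, -2.78 and -2.96 on the control diet and -0.43, -0.60, -0.54 and -0.68 on the deficient diet. Only the A/J groups overlapped. Chaf1a rose by 1.65 ± 0.18 (SE, adjusted p = 1.27e-06) and 2.34 (adjusted p = 1.32e-09), with 0.48 in A/J (adjusted p = 0.0965). Chaf1b, its partner, rose by 1.73 ± 0.14 in WSB/EiJ (adjusted p = 3.19e-09) and differed by 0.29 in C3H/HeJ and 0.29 in A/J; a second Chaf1b probe was higher by 2.31 ± 0.27 in WSB/EiJ.

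Cdc6, a licensing factor, was well above background on 1 C3H/HeJ deficient array and 3 WSB/EiJ deficient arrays and on no other, on both of its probes. Its levels on the brighter probe were -3.68, -3.87, -4.64 and -4.27 on WSB/EiJ deficient arrays and -6.15, -6.46, -6.23 and -6.21 on the control arrays. Since no control array measured it above background, no difference is given. Cdc7, the kinase that Dbf4 activates, was not well above background on any array.

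The diet difference itself differed between strains for many members. Differences were compared with their sign, so a smaller value can be a stronger fall. Between C3H/HeJ and A/J it was larger in C3H/HeJ for 7 members and smaller for 0, where 2.06% of all genes tested were larger and 1.43% smaller (3.48% in either direction). The 7 were Mcm2, Mcm3, Mcm5, Gins2, Rrm2, E2f1 and Chaf1a, and E2f1 had the largest of these with 1.61 ± 0.26 (SE, adjusted p = 0.00208). Mcm2, Mcm3 and Rrm2 each lost this call without A/J control 4, A/J deficient 2 or A/J deficient 4, among others, and Mcm2 and Rrm2 without C3H/HeJ control 2. Pole gained this call without C3H/HeJ control 2, with a difference of 0.92. The number was 4 without A/J control 4, A/J deficient 2 or A/J deficient 4, and 11 without C3H/HeJ deficient 4. Between WSB/EiJ and A/J, 18 members had larger and 3 smaller signed differences in WSB/EiJ, against 16.5% and 33.7% of all genes (50.2% in either). The range among them ran from -3.44 ± 0.41 for Mcm10 to 2.67 ± 0.33 for Rrm2 (adjusted p = 4.11e-06 and 5.90e-06). The 3 smaller were Mcm10, Tk1 and Rfc1, with diet differences of -3.91, -2.10 and -0.55 in WSB/EiJ against -0.47, -0.38 and 0.01 in A/J.

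WSB/EiJ and C3H/HeJ, the strains with most called members, differed from each other in 8 members with larger and 3 with smaller values in WSB/EiJ, against 9.13% and 16.6% of all genes (25.7% in either). The larger were Cdt1, Mcm6, Dbf4, Pola1, Pole2, Lig1, Rrm2 and Chaf1b. The smaller were Mcm10, Tk1 and Rfc1, whose diet differences were more negative in WSB/EiJ than in C3H/HeJ. Chaf1b had 1.44 ± 0.20 (SE, adjusted p = 6.26e-05) and Mcm10 -3.05 ± 0.41 (adjusted p = 3.98e-05). Mcm2, Mcm3, Mcm4, Mcm5 and E2f1, which rose in both strains, had WSB/EiJ minus C3H/HeJ values of -0.19, 0.07, -0.40, 0.26 and -0.15, with SE of 0.25 to 0.32, and did not pass this test. Without C3H/HeJ control 2, Gins2, Fen1 and Chaf1a were also called larger in WSB/EiJ, by 0.85, 0.53 and 0.87. Under spike-in scaling the value of Rfc1 turned to 0.20. These comparisons between strains share groups, so their counts are not independent.

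On the control diet, members were called between strains about as often as all genes tested, counting both directions together, so those totals are not a result about the members. Between C3H/HeJ and A/J, 5 members were higher and 6 lower in C3H/HeJ, against 14% and 10.5% of all genes (24.5% in either). WSB/EiJ had 6 members higher and 10 lower than A/J, against 26.4% and 18.7% (45.1% in either), and 4 higher and 10 lower than C3H/HeJ, against 21.7% and 18.9% (40.5% in either). Tk1 was higher in C3H/HeJ than in A/J by 1.09 ± 0.25 (SE, adjusted p = 0.00264) and in WSB/EiJ by 1.86 (adjusted p = 3.74e-06). Mcm6 was lower in WSB/EiJ than in A/J by 1.44 and than in C3H/HeJ by 1.83 ± 0.20 (adjusted p = 7.04e-06 and 2.87e-07). E2f1 was lower than in A/J by 1.10 ± 0.18 in C3H/HeJ and by 0.68 in WSB/EiJ (adjusted p = 1.53e-04 and 0.00525). The number for C3H/HeJ against A/J was 7 without A/J control 4 in place of 11. Without C3H/HeJ control 2, Mcm4 and Mcm5 lost that call, and Mcm7, Pole2 and Dut gained it. Mcm3 lost its call between WSB/EiJ and C3H/HeJ without the same array.

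Prim2 had the largest difference of the members on the control diet. On the brighter probe (chromosome 1, 33510733 to 33510792, NCBI37, minus strand), levels were -0.33, -0.24, -0.34 and -0.42 on A/J, -0.21, -0.37, -0.05 and -0.10 on C3H/HeJ and -3.74, -3.81, -4.25 and -5.14 on WSB/EiJ control arrays. WSB/EiJ deficient arrays were at -4.34, -3.95, -4.37 and -3.99, as low as the control arrays, of which 2 of 4 were well above background. All 8 WSB/EiJ arrays were far below all 16 arrays of the other strains, by -3.91 ± 0.20 (SE) against A/J on the control diet (adjusted p = 3.44e-12). A second Prim2 probe (33535912 to 33535971) differed between WSB/EiJ and A/J by 0.94 ± 0.54 in the other direction and did not pass the test. Its control levels were -1.50, -3.64, -3.58 and -3.62 in WSB/EiJ, with 1 array far above the others. In A/J they were -3.69, -3.86, -4.60 and -3.95, with 2 of 4 arrays well above background. Pola1 was also lower in WSB/EiJ than in A/J on the control diet, by 1.07 ± 0.10. Pole2 was called lower too, but it was well above background on 0 of 4 WSB/EiJ and 2 of 4 A/J control arrays. Its A/J mean of -4.39 lay below -4.23, the mean of the lowest signals well above background on the WSB/EiJ control arrays. No size or minimum fold is therefore given.

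**Figure D4:**
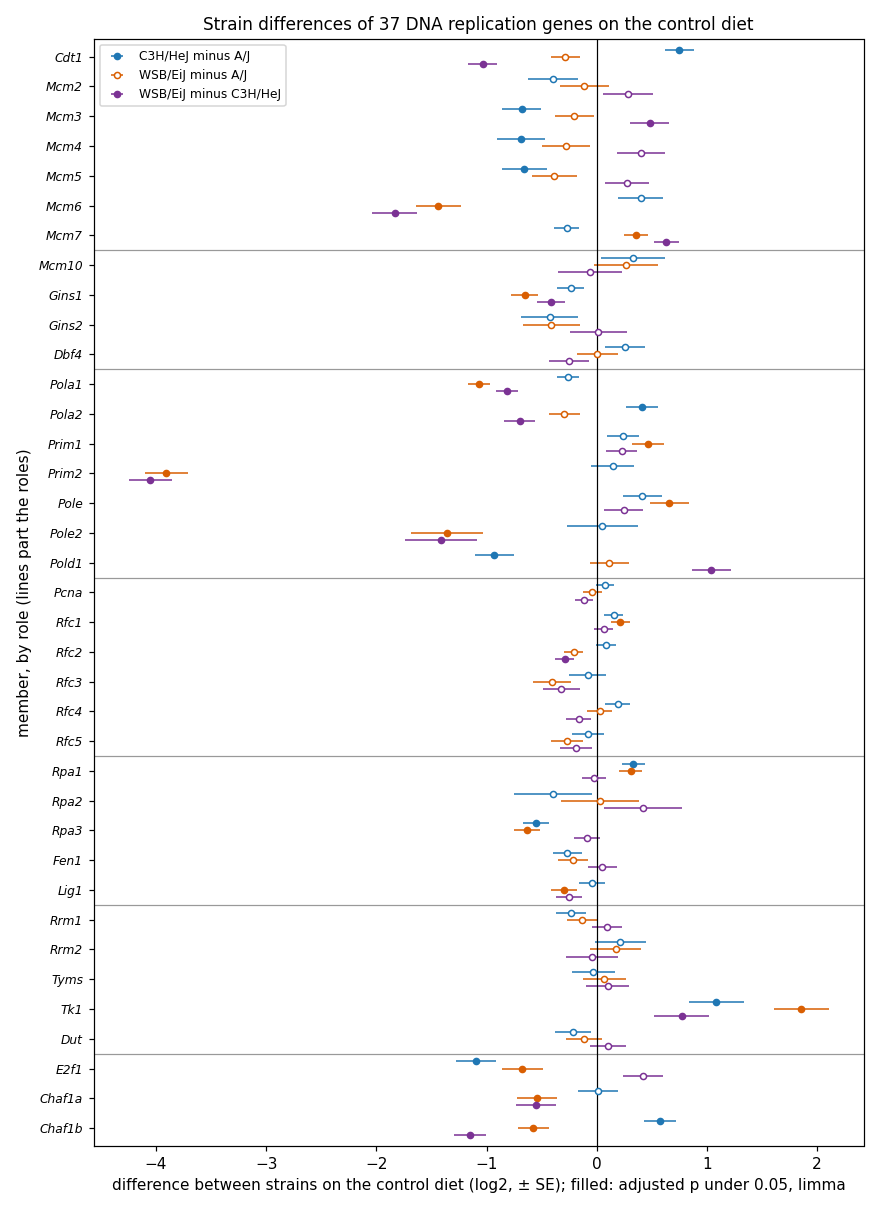
Differences between strains on the control diet for the 37 tested members, on the log2 scale with the standard error of the fit (x axis), by role (y axis), with 1 colour for each pair of strains; filled points have an adjusted p under 0.05. Prim2 lies near -4 for both comparisons with WSB/EiJ (-3.91 and -4.05), and Tk1 lies right of 0 for all 3 pairs.

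The members with an E2F-type match in the windows described above were called higher on the deficient diet in 8 of 10 tested cases in WSB/EiJ, 8 of 10 in C3H/HeJ and 4 of 10 in A/J. The members with a window and no match were called higher in 9, 8 and 0 of 21, and lower in 5, 3 and 0. Of all genes tested, 23.6, 17.3 and 5.64% were higher in WSB/EiJ, C3H/HeJ and A/J, and 50, 30.6 and 4.63% were lower. Mcm7 and Rfc3 were the tested members with a match that were called in no strain. These are counts over genes chosen for their role, and no test was made of them.

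Other genes of the pathway outside the members were called in both directions, and their numbers are to be read beside the shares of all genes tested, 23.6% higher and 50% lower in WSB/EiJ and 17.3% and 30.6% in C3H/HeJ. Of 17 tested origin recognition and other initiation factors, 5 were higher and 5 lower in WSB/EiJ, and 5 and 3 in C3H/HeJ; Ticrr, which helps to load Cdc45 onto the helicase, rose by 3.56 ± 0.35 (SE) in WSB/EiJ and 2.80 in C3H/HeJ. Of 20 other polymerase and fork subunits, 6 were higher and 8 lower in WSB/EiJ, and 7 and 3 in C3H/HeJ. Chtf18 and Dscc1, of the alternative clamp loader, rose by 2.68 ± 0.27 and 3.20 ± 0.39 in WSB/EiJ, and Dna2, a flap nuclease, fell by 1.77 ± 0.14. Of 15 other nucleotide synthesis genes, 5 were higher and 9 lower in WSB/EiJ, and 2 and 6 in C3H/HeJ. Cad, which starts pyrimidine synthesis, fell by 2.56 ± 0.34 in WSB/EiJ and 1.84 in C3H/HeJ, and Shmt1, a folate enzyme, fell by 1.45 ± 0.19 in WSB/EiJ.

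Of 9 genes of histone supply and replication chromatin, 3 were higher and 3 lower in WSB/EiJ, among them Uhrf1, which recognises newly copied DNA (4.49 ± 0.47, SE), and Asf1b, a histone chaperone (2.93 ± 0.28). Of 16 E2F family members and S phase cyclins, 6 were higher and 6 lower in WSB/EiJ; Ccna2, cyclin A, rose by 4.50 ± 0.27 and Rbl1, a pocket protein, by 2.24 ± 0.20. Of 11 mitosis markers, 11 were higher in WSB/EiJ and in C3H/HeJ and 4 in A/J, with medians of 4.19, 2.66 and 0.86. Their summed level ran from 2.23 to 3.24 on WSB/EiJ control and from 30.5 to 40.1 on WSB/EiJ deficient arrays, from 1.70 to 2.71 and 12.7 to 16.4 in C3H/HeJ, and from 2.35 to 5.93 and 5.20 to 8.23 in A/J, in linear units where 1 is the array's 75th percentile. In A/J, 1 to 2 genes of each of these lists passed the test except for mitosis and histone supply, where 4 and 0 did. These A/J counts are to be read beside 10.3% of all genes tested, both directions together. Ccne1, cyclin E, rose in A/J by 1.28 ± 0.21. The median diet differences of the first 5 lists lay between -0.50 and 0.16 in WSB/EiJ, beside -0.33 for all genes.

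Markers of other cell types were called for diet too. Their counts are to be read beside the shares of all genes tested. These were 23.6% higher and 50% lower in WSB/EiJ, 17.3% and 30.6% in C3H/HeJ, and 5.64% and 4.63% in A/J. Summed linear levels of the 10 macrophage markers ran from 54.3 to 64.1 on WSB/EiJ control and 244 to 272.99 on WSB/EiJ deficient arrays, and 8 of 10 rose. In C3H/HeJ they ran from 70.6 to 83.9 and from 129 to 212 (7 of 10 rose), and in A/J from 143 to 222 and from 188 to 238 (3 of 10 rose). Stellate cell markers ran from 55.6 to 78.7 and from 217 to 322 in WSB/EiJ (9 of 10 rose), from 48.5 to 72.02 and from 80.6 to 201 in C3H/HeJ (6 of 10), and from 55.2 to 106.8 and from 77.4 to 130 in A/J (2 of 10). Macrophage and stellate marker sums did not overlap between diets in C3H/HeJ and WSB/EiJ. Biliary sums, given next, did not overlap between diets in any strain. In WSB/EiJ the hepatocyte, endothelial, lymphocyte and erythroid precursor sums did not overlap either. Relative to the array percentile used for scaling, they were lower on the deficient diet.

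Biliary marker sums ran from 3.94 to 5.51 and from 11.5 to 49.9 in WSB/EiJ (5 of 7 rose), from 3.82 to 4.76 and from 5.32 to 25.4 in C3H/HeJ (2 of 7), and from 3.98 to 5.07 and from 5.77 to 10.003 in A/J (0 of 7). Hepatocyte marker sums ran from 10306 to 11175 and from 4848 to 5998 in WSB/EiJ, where 12 of 12 fell; 10 of 12 fell in C3H/HeJ and 1 of 12 in A/J. Of 8 endothelial markers 1 rose and 3 fell in WSB/EiJ, with sums of 41.1 to 48.4 on the control and 27.0 to 40.2 on the deficient diet. Of 7 lymphocyte markers 2 rose and 3 fell there (41.6 to 61.5 and 13.5 to 24.1), and of 5 tested erythroid precursor markers 4 fell (399 to 523 and 164 to 282.2). The shares of endothelial and lymphocyte markers that fell in WSB/EiJ were below the 50% of all genes tested. All these sums and calls are relative to the array percentile used for scaling. Spike-in scaling moved the median diet difference of all genes up, most in WSB/EiJ. Marker values under it are not given, so whether the falls in any strain remain under that scaling is not shown here. The lymphocyte markers Cd8a, Ms4a1 and Ncr1 were not tested. The part of these cell types in the results on the replication genes was not tested.

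**Figure D5:**
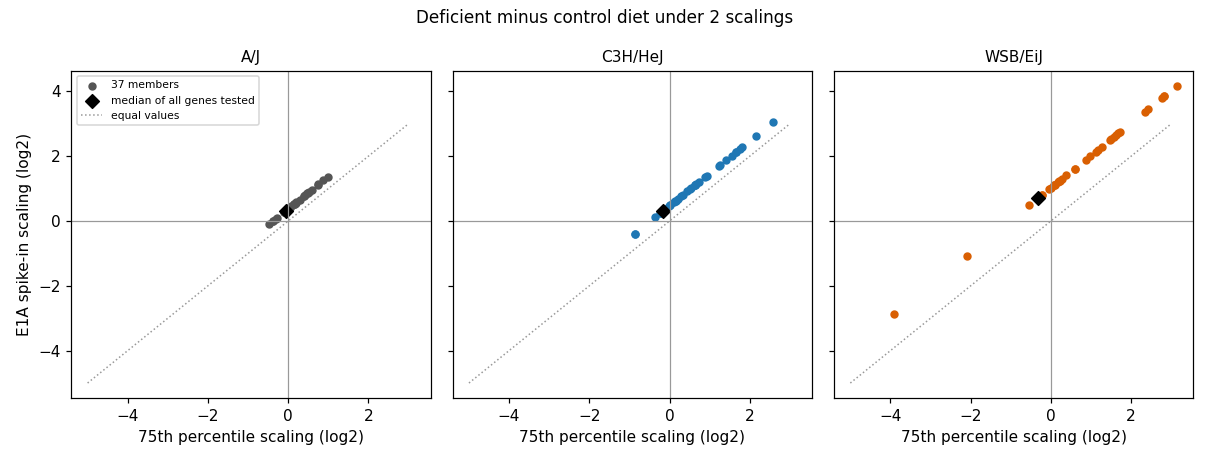
Deficient minus control diet for the 37 members (points) under scaling to the array's 75th percentile (x axis) and to the E1A spike-in probes (y axis), both log2, in the 3 strains; the diamond is the median of all genes tested and the dotted line marks equal values. Points lie above the line by 0.37, 0.47 and 1.03, so members just left of 0 on the x axis lie above 0 on the y axis, while Mcm10 and Tk1 stay below 0 in C3H/HeJ and WSB/EiJ.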

How the data were processed

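RNA from the livers was hybridised to 24 Agilent 1-colour arrays. The deposited scanner files hold spot intensities that the authors' scanner software, Agilent Feature Extraction 10.7 per the submitters' processing notes, had corrected for background; no log was taken. The normalized values deposited by the authors are also intensity values, each array's processed signal times a constant. Array coordinates are of the array's own mouse build, NCBI37.

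The log2 of each processed signal minus its array's 75th percentile over gene spots was used, after leaving out 3332 outlier-flagged spots and averaging spots of a probe. Probe names were updated through RefSeq by accession (26762 probes), symbol (3806) or older symbol (638), kept for 2044, and missing for 22431. A gene was read by its brightest probe and tested if some group had all 4 of its arrays well above background. limma 3.58.1 (R 4.3.3) fitted 1 mean for each of the 6 groups; comparisons used lmFit and eBayes with Benjamini-Hochberg adjustment over 15705 genes (threshold 0.05, 2-sided). The script was tested on simulated data. Members described array by array were the 2 of each role with the largest mean absolute diet difference over the strains, and the up to 3 further members called lower with the largest difference. The members and lists were chosen with earlier results of these data known. Same-numbered control and deficient samples of a strain did not deviate together (0 of 12 pairs of arrays had a correlation over 0.1). This cannot exclude a pairing by handling. The labels name no pairing, and the fit used none. Alternatives changed the scaling, background correction, filter, choice of probe, block, samples and array weights, and left out each array in turn.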

Additional observations from a re-analysis of the deposited data

Results flagged for a closer look

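In 15 of 222 sets of 4 arrays (6.76%, where chance gives about 5%), 1 array lay far from the other 3 by Dixon's criterion. C3H/HeJ control 2 was low for Gins2 (-4.00), Pole2 (-5.93) and Rrm1 (0.50). WSB/EiJ control 4 was low for Gins2 (-3.52) and Lig1 (0.78) and high for Pola2 (-1.81). WSB/EiJ control 3 was high for Prim1 (1.46). A/J control 1 was low for Mcm2 (-2.49) and Dbf4 (-3.26), and A/J control 4 was high for Pold1 (0.93) and low for Rfc5 (2.25) and Rpa2 (-1.47). A/J deficient 4 was high for Rfc3 (-0.94), WSB/EiJ deficient 3 for Rfc1 (1.93) and WSB/EiJ deficient 4 for Rpa2 (-0.18).

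The difference between diets itself differed between strains, by a limma interaction test, for the following members. Between C3H/HeJ and A/J these were E2f1 (1.61), Gins2 (1.60), Mcm5 (1.43), Rrm2 (1.39), Mcm2 (1.23), Chaf1a (1.17) and Mcm3 (1.01). Between WSB/EiJ and A/J, the licensing members were Mcm6 (1.94), Mcm5 (1.69), Mcm3 (1.09), Mcm2 (1.04) and Cdt1 (1.02), and those of helicase activation Gins2 (2.16), Dbf4 (1.19) and Mcm10 (-3.44). The polymerase, clamp and flap members were Pole2 (2.02, from WSB/EiJ control arrays on which it was not well above background), Pola1 (1.06), Pole (0.96), Fen1 (0.83), Lig1 (0.78), Pcna (0.42) and Rfc1 (-0.56). The rest were Rrm2 (2.67), Chaf1a (1.86), E2f1 (1.46), Chaf1b (1.44), Rrm1 (0.51) and Tk1 (-1.73). Between WSB/EiJ and C3H/HeJ they were Pole2 (1.54, with the same limit, and with 2 of 4 C3H/HeJ control arrays well above background), Chaf1b (1.44), Rrm2 (1.28), Dbf4 (1.04), Mcm6 (1.01), Cdt1 (0.95), Pola1 (0.72), Lig1 (0.54), Rfc1 (-0.36), Tk1 (-1.24) and Mcm10 (-3.05).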

How the results depend on the processing

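Of the 9 counts of called members, those of the diet difference in C3H/HeJ and WSB/EiJ, of WSB/EiJ against A/J or C3H/HeJ in that difference, and of WSB/EiJ against either strain on the control diet stayed within 1.5 times their value under all 14 alternatives and with each array left out. The diet count in A/J (5) was 16 under spike-in scaling, 3 in a fit of the A/J arrays alone and 13 with array weights (10 higher, 3 lower). The C3H/HeJ minus A/J count for the diet difference (7) was 4 with the array median, 11 with normexp and quantile normalization, 2 under spike-in scaling, 3 with only the groups compared and 2 without A/J control 4 and A/J deficient 4 together. The C3H/HeJ minus A/J count on the control diet (11) was 6, 7 and 7 under spike-in scaling, with only the groups compared and without those 2 arrays. With each array left out in turn, the counts ranged from 2 to 6 in A/J, 20 to 26 in C3H/HeJ and 24 to 28 in WSB/EiJ. The ranges were 4 to 11, 20 to 23 and 9 to 14 for the differences between strains (C3H/HeJ minus A/J, WSB/EiJ minus A/J, WSB/EiJ minus C3H/HeJ), and 7 to 12, 13 to 18 and 11 to 15 on the control diet. With the replicate number as a block, which the labels do not give as a pairing, 5, 21 and 25 members were called for diet in A/J, C3H/HeJ and WSB/EiJ.

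Of 12618 single-gene values under the alternatives, 18 turned sign with a call on at least one side, and a further 329 turned sign with no call on either. Under spike-in scaling the WSB/EiJ diet difference was 1.02 for Dut, 0.99 for Gins1, 0.82 for Mcm7, 0.81 for Tyms, 0.76 for Rpa1, 0.75 for Rpa3, 0.75 for Rfc5 and 0.48 for Rfc1, and that in C3H/HeJ was 0.46 for Mcm7, 0.28 for Rfc1 and 0.11 for Rfc5. The WSB/EiJ minus A/J diet difference was 0.62 for Dut and 0.10 for Rfc1, and WSB/EiJ minus C3H/HeJ was 0.20 for Rfc1. On the control diet WSB/EiJ minus A/J was -0.10 for Rfc1 and -0.0067 for Rpa1. Rpa1 in WSB/EiJ was 0.21 under quantile normalization and 0.19 with normexp. This scaling moved all genes in 1 direction; the cause was not tested. The other single-gene values kept their direction, 11777 of them on the same side of the threshold, 290 no longer past it and 204 newly past it. Signal over background limits Pole2, Gins2, Prim2 and Cdc6, and 4 arrays a group limit the small differences of the Rfc and Rpa genes.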
